A study of Homo sapiens with 12 samples.

Results

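The 78 genes described here encode proteins of the mitochondrial ribosome. They are all gene names in the count files that consist of MRPL or MRPS, a number and at most 1 letter from A to C, out of 57133 gene names in all. Of these, 49 carry the large-subunit prefix MRPL and 29 the small-subunit prefix MRPS. Membership follows the name and not the values, but the set was chosen with earlier results of these data known. Their messenger RNA was measured in MCF10-A, an established, non-tumorigenic line of human breast epithelium, in which doxycycline switched on a transgene. The transgene encoded the fluorescent protein mVenus alone, mVenus-p16 or mVenus-p21. p16 and p21 are proteins that inhibit cyclin-dependent kinases and so arrest the cell cycle. All cells received 50 ng/ml doxycycline and were harvested after 5 days. The mVenus, p16 and p21 groups were given DMSO, and a second culture of p16 cells was given 100 nM Torin2, an inhibitor of the growth kinase mTOR, in place of DMSO. Treatment with DMSO or Torin2 began 24 hours after doxycycline. Torin2 was not given to mVenus or p21 cells. Each of the 4 groups held 3 libraries described as biological replicates, and every sample came from the same line.

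Mitochondrial ribosomes translate the few messenger RNAs of the mitochondrial genome, all of which encode core subunits of the respiratory chain and ATP synthase. Their ribosomal RNAs are transcribed inside the organelle, whereas all of their proteins are encoded in the nucleus, made in the cytosol and imported. Some of these proteins descend from bacterial ribosomal proteins, and others exist only in mitochondria. Stable assembly needs proteins and ribosomal RNA together, with the help of dedicated assembly factors. Some names mislead: MRPS30 and MRPS18A lie in the large subunit, and MRPS36 is known as a component of the 2-oxoglutarate dehydrogenase complex rather than of the ribosome.

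The 12 libraries held 13168749 to 18321114 assigned counts, and replicates correlated with r of at least 0.992 across genes. CDKN2A, the gene of p16, had 0 counts in all 12 libraries, so it gives no check of the labels, and transgene reads may not be assigned to it. CDKN1A, the gene of p21, stood at 712 CPM in mVenus and 889 in p21, 1.25-fold higher. The proliferation marker MKI67 had mean levels of 331 CPM with mVenus alone, 3.35 in p21, 10.1 in p16 and 51.6 in p16 plus Torin2, where CPM is counts scaled to a library size that TMM adjusts. Markers of epithelium were present, and their 8 genes together took 0.617% of counts for mVenus, 0.768% for p21, 1.45% for p16 and 0.610% for p16 plus Torin2. Summed markers of other cell types took small shares of the counts, but these differed between groups. Leukocyte markers had mean shares of 0.00588% in mVenus, 0.0115% in p16, 0.00535% in p16 plus Torin2 and 0.0109% in p21. In the same order, endothelial markers had 0.000549%, 0.00253%, 0.000862% and 0.000272%, and fibroblast markers 0.00213%, 0.000698%, 0.000570% and 0.0113%. CD3E and TYROBP were at 0 counts in every library, but CSF1R and CD14 (leukocyte list) and DCN (fibroblast list) were counted. Whether the cell cycle state or these markers had a part in the values below was not tested. In bulk RNA, fewer cells of a type and less RNA per cell cannot be told apart.

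A count was found for 77 of the 78 genes, and 74 had enough counts to be tested. Levels between genes are compared per kilobase of exonic length. By this measure the tested genes had a median of 14.0 CPM per kb over the 12 libraries, with quartiles of 7.84 and 21.6. All tested genes had a median of 4.27 CPM per kb, nuclear-encoded respiratory chain genes 26.0 and cytosolic ribosomal protein genes 120. By their medians these transcripts stood above genes at large and below those of the cytosolic ribosome, and 41 of them lay over the upper quartile of all tested genes. Median levels were 15.3 CPM per kb for MRPL names and 9.33 for MRPS names. Measured in this way, transcripts for proteins of 1 complex ran from 0.348 to 55.9 CPM per kb among those tested. Unassigned reads in bases shared with other genes and the annotated exonic length also enter this measure. Their part in the range was not tested.

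The highest levels per length belonged to MRPS34, a mitochondria-specific small-subunit protein, to MRPS21, a small-subunit protein of bacterial descent, and to MRPL24, which lines the exit of the peptide tunnel. MRPS34 had 51.6 ± 3.13 CPM per kb in mVenus, 56.3 ± 1.54 in p16, 58.6 ± 3.46 with added Torin2 and 57.3 ± 2.35 in p21 (SD, n = 3 throughout). MRPS21 had 41.8 ± 2.16, 62.9 ± 1.07, 62.5 ± 6.03 and 50.1 ± 0.265 CPM per kb in the same order, and MRPL24 had 45.7 ± 1.51, 45.0 ± 1.07, 65.1 ± 0.739 and 43.7 ± 1.80. Which of them ranked first differed between groups. MRPS34 was first in mVenus and p21, MRPS21 in p16 and MRPL24 with Torin2, but in p16 with Torin2 the values of MRPL24, MRPS21 and MRPS34 lay within the spread of MRPS21. At the low end of the tested genes stood MRPL46 at 0.348 CPM per kb, MRPL38 at 0.421 and MRPL53 at 0.797, chosen for mention after their values were seen. MRPL38 and MRPL53 share 41.1% and 45.2% of their exonic bases with other genes. Reads in shared bases are unassigned but the full length is divided by, so these levels may be too low.

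The 4 genes that could not be tested were almost absent from the counts. MRPS18B, a small-subunit protein (chromosome 6, 30617709 to 30626395, GRCh38, plus strand), had 0 counts in all 12 libraries. Over the 3 libraries of a group, 0 counts allow up to 0.0587 CPM in mVenus, 0.0652 in p16, 0.0651 in p16 plus Torin2 and 0.0660 in p21, counting error only. Within 500000 bases on each side, 18 of 31 other protein-coding genes also had 0 counts, or 58.1%, against 18.4% of all 19940 protein-coding genes. MRPL45, which anchors the ribosome to the inner membrane (chromosome 17, 38297023 to 38323218), had 15 counts in all, between 0 and 3 per library, while its 2 named pseudogenes had 207. Of its 17 protein-coding neighbours 2 had 0 counts, or 11.8%, and their median was 40 counts over the 12 libraries, against 877 for all protein-coding genes. MRPS12, a protein of the decoding centre (chromosome 19, 38930548 to 38933162), had 48 counts, and 8 of its 33 neighbours had 0 (median 27). MRPS24 (chromosome 7, 43866558 to 43869893) had 87 counts and shares 23.2% of its exonic bases with a read-through gene, URGCP-MRPS24. Of its 17 neighbours 2 had 0 counts, with a median of 2275. Reads that overlap several genes were not assigned, and how far this or reads with several positions set these low values was not tested. No change between groups was readable for these 4 genes at this depth.

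Promoter sequence was available from RefSeq (GRCh38) for 69 of the 78 genes, as windows of 250 bases before and 50 after a transcription start. Letters of motifs of known regulators of such genes were searched on both strands, and no motif searched contains another. CCGGAAG, the core bound by ETS factors such as GABP, stood in 43.5% of the 69 genes, against 22.1% of 10044 tested genes and 10.3% of all 35116 windows. ATGGCGG, a YY1 motif, stood in 34.8% of the 69, against 12.3% of tested genes and 5.6% of windows. In most of these genes it lay past the start on the gene's own strand, for example at 27 in MRPS15 and 17 in MRPL9. In some, such as MRPL36, it lay before the start. ACTACAA, a motif of ZNF143 and THAP11, was in 11.6%, against 4.6% of tested genes and 2.8% of windows. GCGCATGCG, for the factor NRF1, was in 4.3%, against 4.2% of tested genes and 1.9% of windows. GGGCGG of SP1 was in 60.9%, against 76.7% of tested genes and 45.0% of windows. The E-box CACGTG was in 9 of the 69 genes, against 12.4% and 7.3%, and TGACGTCA was in 1.4%, against 3.7% and 1.8%. A match is a run of letters and not a shown binding site.

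Stretches before the start are given for 4 genes on which the comparisons turn: MRPL36, with the largest rise in p16, MRPL11, with a large fall, and MRPL20 and MRPL55, called in opposite directions in p16 and p21. They begin 150 bases before the RefSeq start and end there or at the first annotated exon, on the minus strand, with motif letters in capitals (CCGGAAG in MRPL20, and CCGCCC, the SP1 letters on the other strand, in MRPL55). They come from chr5:1799896-1799987, chr11:66438849-66438998, chr1:1407314-1407443 and chr1:228109313-228109449 in this order, and the first pair of stretches holds no motif of those searched. The window of MRPL36 does hold motifs past the end of its stretch. They are CACGTG at -56 from the start and ATGGCGG, on the other strand, at -37.
MRPL36: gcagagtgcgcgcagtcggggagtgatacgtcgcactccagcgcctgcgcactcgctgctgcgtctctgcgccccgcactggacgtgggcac
MRPL11: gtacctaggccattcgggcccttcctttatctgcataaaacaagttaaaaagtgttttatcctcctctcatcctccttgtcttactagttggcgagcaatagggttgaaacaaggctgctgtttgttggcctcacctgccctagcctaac
MRPL20: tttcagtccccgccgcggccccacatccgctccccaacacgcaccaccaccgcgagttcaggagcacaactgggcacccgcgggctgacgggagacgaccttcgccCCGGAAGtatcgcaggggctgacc
MRPL55: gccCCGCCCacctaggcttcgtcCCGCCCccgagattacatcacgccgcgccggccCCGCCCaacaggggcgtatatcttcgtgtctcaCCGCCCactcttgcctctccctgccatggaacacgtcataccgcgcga

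The first comparison asks how the ribosomal protein transcripts stood after 5 days of p16 relative to mVenus alone. Of the 74 tested, 29 were higher and 7 lower in p16 at an adjusted p under 0.05 (edgeR quasi-likelihood test, Benjamini-Hochberg over all genes tested), beside 30.9% of all genes called higher and 32.8% called lower. The median log2 fold change of the 74 was 0.11, and between 0.11 and 0.13 under the other scalings, against 0.00 for all genes. These changes were small. Their SD across the 74 was 0.261 on the log2 scale, against 0.986 across all genes, and 2 members (2.7%) were called past 1.5-fold, beside 28.8% of all genes. Fewer were called in either direction, 48.6%, than among all genes, 63.7%, or among the 8954 genes of at least 10 CPM, 72.8%. Of those 8954 genes, 21.4% were called past 1.5-fold. The median absolute log2 fold change was 0.163 for the 74, 0.275 for the 8954 and 0.35 for all genes.

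MRPL36, a short large-subunit protein of bacterial descent (chromosome 5, 1798386 to 1801366), had the highest rise in p16. Its levels were 18.8, 20.2 and 18.5 CPM in mVenus and 31.4, 36.0 and 32.5 in p16. Every p16 library lay above every mVenus library, which the choice of the largest rises required. The log2 fold change was 0.80 ± 0.06 (SE), or 1.75-fold, with an adjusted p of 7.24e-10. In p21 it had 25.5, 24.9 and 25.6 CPM, also above every mVenus library and below every p16 library, with a log2 fold change of 0.41 ± 0.07 over mVenus (adjusted p = 2.48e-05). Cells with p16 and Torin2 had 23.1, 21.8 and 22.8 CPM, below every p16 library.

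Next in p16 came MRPS21, at 71.4, 64.6 and 69.6 CPM in mVenus and 105.3, 102.4 and 102.1 in p16 (log2 fold change 0.59 ± 0.06, 1.504-fold, adjusted p = 1.24e-08). MRPL50, MRPS25 and MRPS33, which have no bacterial counterpart, rose by 0.53 ± 0.07, 0.52 ± 0.06 and 0.51 ± 0.06 on the log2 scale (adjusted p = 1.24e-06, 2.61e-07 and 2.24e-07). MRPS30 rose from 48.2, 48.6 and 49.9 CPM to 61.9, 66.4 and 75.5 (0.47 ± 0.06, adjusted p = 9.68e-07). For all 5 genes the libraries of p16 and mVenus did not overlap. For all but MRPS30 this was a condition for choosing the largest rises, so it adds no support.

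The 7 lower genes all carry MRPL names. MRPL9, a large-subunit protein of bacterial descent (chromosome 1, 151759643 to 151763564), had 30.6, 29.5 and 31.8 CPM in mVenus and 21.1, 21.4 and 21.9 in p16 (log2 fold change -0.51 ± 0.06, adjusted p = 1.82e-07). Of its exonic bases, 38.5% are shared with OAZ3, whose own log2 fold change was -0.21 ± 0.23 (adjusted p = 0.446). MRPL48, a protein of the central protuberance (chromosome 11, 73787316 to 73865133), went from 13.21, 14.68 and 13.02 CPM to 9.23, 10.01 and 10.23 (-0.47 ± 0.09, adjusted p = 0.000125). MRPL11, at the base of the stalk that recruits translation factors (chromosome 11, 66435075 to 66466738), went from 26.4, 25.8 and 24.3 CPM to 17.96, 20.02 and 17.47 (-0.46 ± 0.06, adjusted p = 2.82e-06). In each of the 3 the groups did not overlap, which the choice of the largest falls required. MRPL51 fell by 0.29 ± 0.05 on the log2 scale (adjusted p = 2.77e-05), but shares 31.3% of its exonic bases with NCAPD2, a condensin gene whose log2 fold change was -1.55 ± 0.05. MRPL55, MRPL16 and MRPL28 had log2 fold changes of -0.25 ± 0.08, -0.16 ± 0.05 and -0.12 ± 0.05. MRPL28 lost its call in 10 of 13 alternative analyses, among them without mVenus replicate 1 or 2 or p16 replicate 2 or 3 (adjusted p up to 0.486). MRPL16 lost it in 4, among them without mVenus replicate 2 or p16 replicate 1 (up to 0.23).

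**Figure D1:**
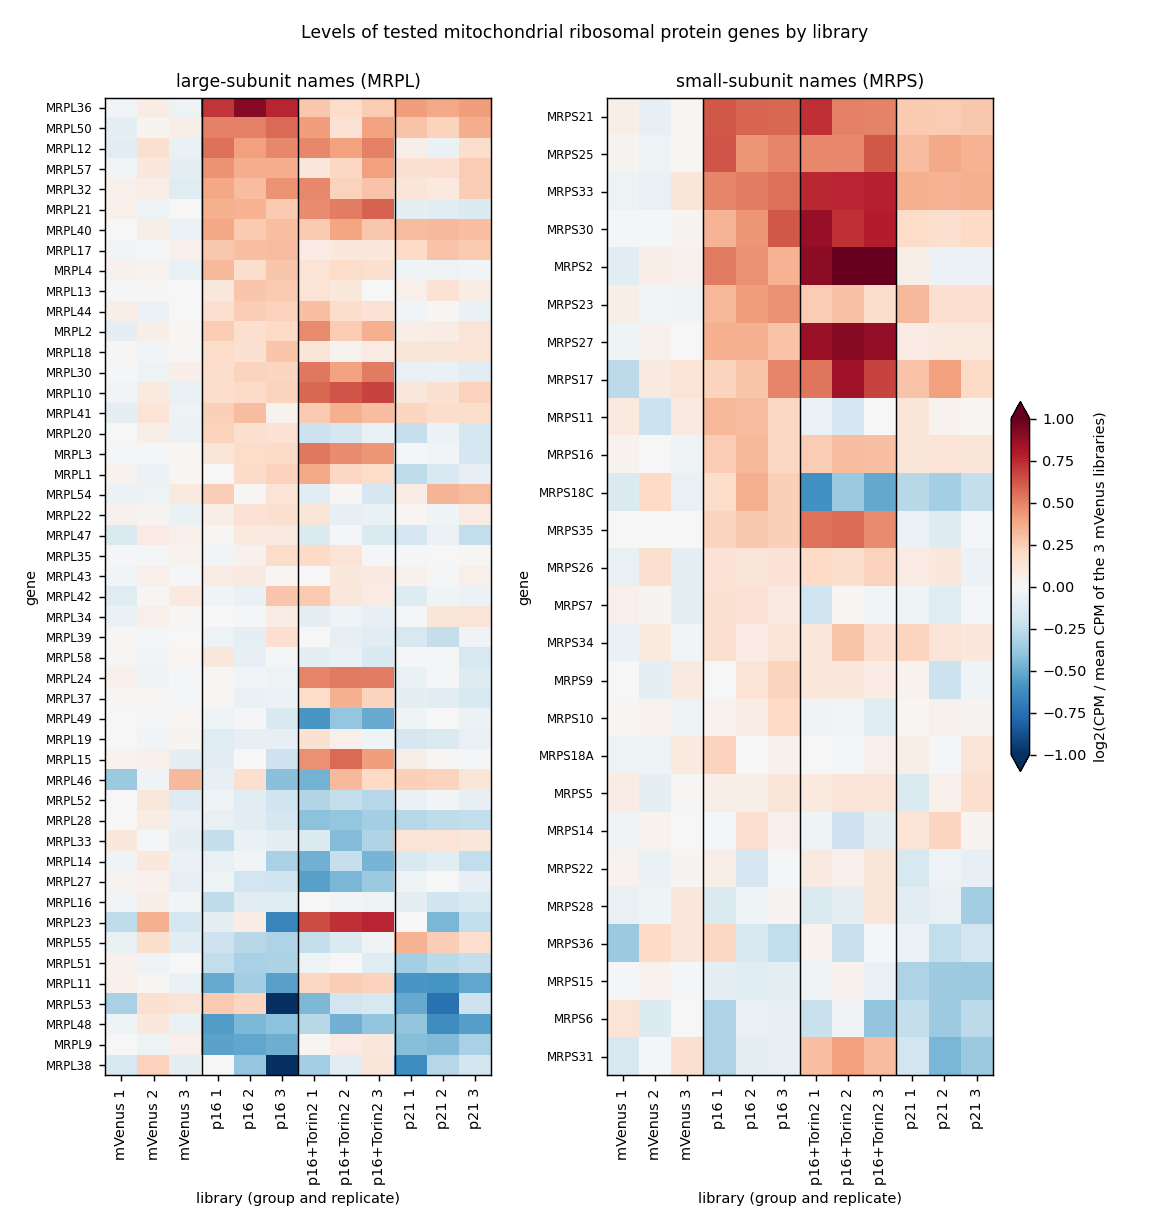
Each row is a tested gene and each column a library, grouped as mVenus, p16, p16 with Torin2 and p21; colour is the log2 ratio of CPM to the mean of the 3 mVenus libraries, with values past 1 or -1 shown in the end colours. Genes are ordered by their p16 mean, so that MRPL36 and MRPS21 stand at the top, and MRPS2, MRPS27 and MRPS30 are deepest red with Torin2.

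By place in the ribosome, the rises in p16 reached both subunits. Proteins of the small subunit had 10 higher and 0 lower of 23 tested, with a median log2 fold change of 0.15. Those of the large subunit, MRPS30 and MRPS18A included, had 19 higher and 7 lower of 50, with a median of 0.07. MRPS36 was placed in neither. By name, 11 of 26 MRPS genes were higher and 0 lower, and 18 of 48 MRPL genes were higher and 7 lower. Among the small-subunit proteins without bacterial counterpart 6 of 9 were higher and 0 lower, median 0.25. Among those of bacterial descent 4 of 14 were higher and 0 lower, median 0.12. In the large subunit 13 of 30 proteins of bacterial descent were higher and 5 lower, and 6 of 20 mitochondria-specific ones were higher and 2 lower. These counts were not tested against each other, and among all genes 30.9% were called higher and 32.8% lower.

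The stalk held opposite changes within 1 structure. MRPL10, MRPL11 and MRPL12 form it, and the first anchors copies of the last. In p16, MRPL10 had a log2 fold change of 0.20 ± 0.06, MRPL11 of -0.46 ± 0.06 and MRPL12 of 0.49 ± 0.08 (adjusted p = 0.00414, 2.82e-06 and 1.41e-05). MRPL12 shares 68.2% of its exonic bases with AC139530.2, which had 0 counts. In the central protuberance, MRPL40 rose by 0.32 ± 0.06 on the log2 scale and MRPL18 by 0.20 ± 0.05 while MRPL48 fell, and MRPL38, MRPL46 and MRPL58, a peptidyl-tRNA hydrolase, were not called. The 4 tested proteins of the tunnel exit, with log2 fold changes between -0.16 and 0.12, were not called.

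The second comparison sets p21 against the same mVenus libraries, so it shares its controls with the first. Here 17 of 74 were higher and 12 lower, beside 28.2% and 28.3% of all genes, and the median log2 fold change was -0.02 (between -0.02 and -0.01 under the other scalings). Of all members 39.2% were called in either direction, against 56.4% of all genes, and 0 were called past 1.5-fold, beside 22.4% of all genes. Among genes of at least 10 CPM these shares were 65.6% and 15.8%. At any fold, 34 members had an unadjusted p under 0.05, as did 8801 of all 14504 genes tested. Many of these calls were close to the threshold. In every alternative analysis 9 of the 17 higher and 6 of the 12 lower kept their call.

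MRPL36 had the highest log2 fold change in p21, given above. MRPS33 went from 20.9, 20.5 and 23.5 CPM in mVenus to 27.7, 27.5 and 27.7 in p21 (log2 fold change 0.35 ± 0.06, adjusted p = 4.85e-05). MRPS25, MRPL40 and MRPL50 rose by 0.34 ± 0.06, 0.32 ± 0.06 and 0.30 ± 0.07 on the log2 scale (adjusted p = 8.49e-05, 0.000175 and 0.00132). The largest falls were those of MRPL11, to 17.02, 16.96 and 17.84 CPM (-0.56 ± 0.07, adjusted p = 3.49e-07), and MRPL48, to 10.4, 8.85 and 9.30 CPM (-0.52 ± 0.09, adjusted p = 5.46e-05). MRPL9 followed at 22.8, 22.6 and 24.5 CPM (-0.40 ± 0.06, adjusted p = 7.24e-06). For MRPL11, MRPL48 and MRPL9 each p21 library lay under every mVenus library, which the choice of the largest falls required. MRPS15, a small-subunit protein of bacterial descent, went from 62.2, 64.5 and 62.0 CPM to 50.9, 49.2 and 48.7 (-0.34 ± 0.05, adjusted p = 2.23e-06). MRPS31 had -0.34 ± 0.09 (adjusted p = 0.00484), a call that was lost without mVenus replicate 3 (-0.24, adjusted p = 0.0536).

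**Figure D2:**
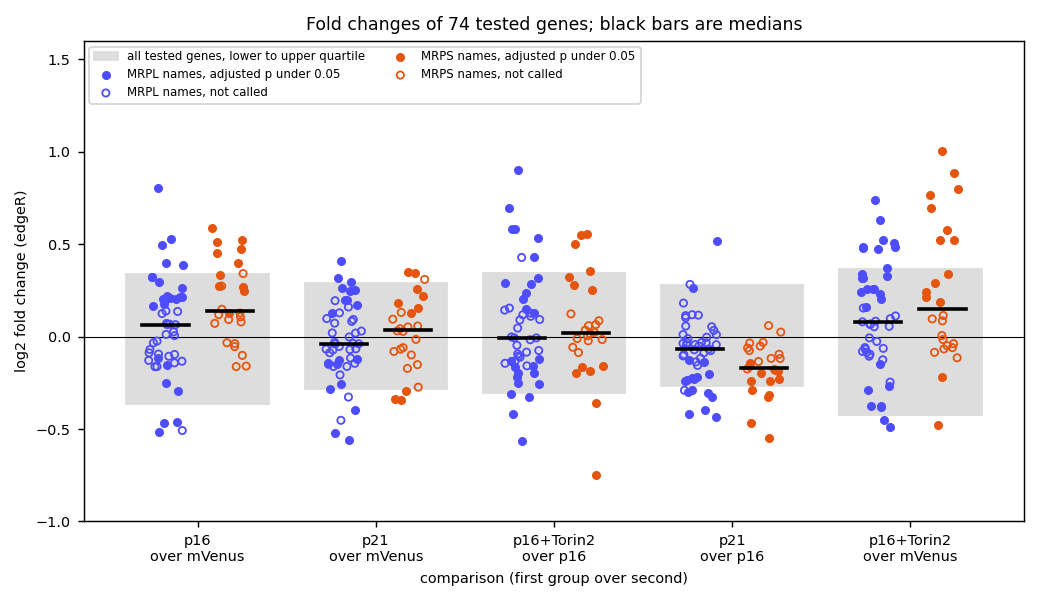
Each point is the log2 fold change of 1 tested gene in 1 of 5 comparisons, blue for MRPL and orange for MRPS names, filled where the adjusted p was under 0.05; black bars are medians and grey boxes run from the lower to the upper quartile of all tested genes. Most points lie within or near the grey boxes, and the highest, MRPS2 at 1.002, is in p16 with Torin2 over mVenus.

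p21 and p16 were also compared directly, without mVenus. Of the 74, 2 were higher in p21 and 29 lower, beside 27.2% of all genes called higher and 27.2% lower. The median log2 fold change was -0.11, against -0.01 for all genes, and between -0.12 and -0.10 under the other scalings. No member was called past 1.5-fold by edgeR, beside 20.6% of all genes and 13.8% of genes of at least 10 CPM. At any fold 32 members had an unadjusted p under 0.05, as did 8488 of the 14504. The largest differences were in MRPS18C (-0.55 ± 0.13, adjusted p = 0.00151), MRPS2 (-0.47 ± 0.07, adjusted p = 1.06e-05) and MRPL21 (-0.44 ± 0.06, adjusted p = 2.81e-06), followed by MRPL12 and MRPL36 (-0.42 ± 0.08 and -0.40 ± 0.06). MRPS18C shares 40.2% of its exonic bases with ABRAXAS1, which was higher in p21 than in p16 (0.36 ± 0.13, adjusted p = 0.0246). MRPS2, a small-subunit protein of bacterial descent (chromosome 9, 135499984 to 135504673), had 34.3, 32.8 and 30.5 CPM in p16 but 24.95, 22.96 and 22.94 in p21, where mVenus had 22.12, 24.97 and 24.62. Its p21 and mVenus libraries overlapped, and its p16 libraries lay above both. By name, 14 of 26 MRPS genes were lower in p21 than in p16 and 0 higher, and 15 of 48 MRPL genes were lower and 2 higher.

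The 2 genes higher in p21 than in p16 were MRPL55 and MRPL33, both large-subunit proteins of bacterial descent. MRPL55 (chromosome 1, 228106679 to 228109312) had 32.7, 38.9 and 31.8 CPM in mVenus, 29.9, 28.5 and 27.8 in p16 and 43.9, 40.9 and 38.7 in p21. All p21 libraries lay above all p16 libraries, with mVenus between and overlapping p21. Its log2 fold change over mVenus was -0.25 ± 0.08 in p16 (adjusted p = 0.00641) and 0.26 ± 0.07 in p21 (adjusted p = 0.00364), and p21 over p16 gave 0.52 ± 0.07 (adjusted p = 6.12e-06). MRPL33 had 43.2, 48.7 and 47.8 CPM in p16 and 56.1, 56.1 and 55.2 in p21 (0.26 ± 0.07, adjusted p = 0.00247). MRPL20 (chromosome 1, 1401908 to 1407313) had the converse order, with 43.8, 45.8 and 42.3 CPM in mVenus, 51.4, 49.0 and 48.6 in p16 and 37.6, 42.3 and 38.9 in p21. Its p16 libraries lay above all others of these 3 groups, while those of p21 and mVenus nearly touched. It was higher in p16 (0.18 ± 0.06, adjusted p = 0.00823) and lower in p21 (-0.15 ± 0.06, adjusted p = 0.0341), and p21 over p16 was -0.33 ± 0.06 (adjusted p = 6.03e-05). Its call in p21 over mVenus was lost in 7 of 13 alternative analyses, among them without mVenus replicate 1 or 2 or p21 replicate 1 or 3, with adjusted p up to 0.243.

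The third question is how Torin2 changed the transcripts of p16 cells. Relative to p16 with DMSO, 20 of 74 were higher and 19 lower, beside 30.3% and 29.0% of all genes. The median was 0.00 and took either sign under other scalings, from -0.01 to 0.03. With upper-quartile scaling the split was 23 higher and 13 lower, but the median of all genes also moved, from 0.023 to 0.054. The median of the members was below that of all genes in both settings. The SD of the log2 fold changes was 0.291, against 0.779 across all genes. Past 1.5-fold 3 members (4.05%) were called, beside 24.2% of all genes and 18.8% of genes of at least 10 CPM. Of the 3 members, 2 were higher (MRPL23 and MRPL11) and 1 lower (MRPS18C).

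MRPL23, at the exit of the peptide tunnel, had 3.12, 3.49 and 2.10 CPM in p16 and 5.21, 5.49 and 5.64 with Torin2 (log2 fold change 0.90 ± 0.19, adjusted p = 0.00037). MRPL11 went from 17.96, 20.02 and 17.47 CPM to 29.5, 30.3 and 29.9 (0.69 ± 0.06, adjusted p = 1.07e-08), also above the 3 mVenus libraries. MRPL9 rose by 0.58 ± 0.06 on the log2 scale and MRPL15, a large-subunit protein of bacterial descent, by 0.58 ± 0.06 (adjusted p = 4.25e-08 and 6.69e-08). MRPS27, a small-subunit protein with pentatricopeptide repeats that exists only in mitochondria (chromosome 5, 72219409 to 72320646), had 115, 115 and 110 CPM in p16 and 164, 169 and 166 with Torin2 (0.55 ± 0.04, adjusted p = 1.03e-10). MRPS2 went from 34.3, 32.8 and 30.5 CPM to 44.5, 48.1 and 50.6 (0.55 ± 0.06, adjusted p = 2.57e-07). In these 6 genes the libraries with and without Torin2 did not overlap. For all but MRPS2 this was a condition for choosing the largest rises, so it adds no support.

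In the other direction, MRPS18C (chromosome 4, 83455932 to 83469735) had 6.05, 6.85 and 6.30 CPM in p16 and 3.52, 4.14 and 3.74 with Torin2 (log2 fold change -0.75 ± 0.13, adjusted p = 6.91e-05). It shares 40.2% of its exonic bases with ABRAXAS1, which rose by 1.35 ± 0.11 on the log2 scale with Torin2, and reads in shared bases are unassigned. MRPL36 went to 23.1, 21.8 and 22.8 CPM (-0.56 ± 0.06, adjusted p = 1.71e-07). MRPL49, a mitochondria-specific large-subunit protein, had 54.2, 55.7 and 50.5 CPM in p16 and 37.5, 43.0 and 39.5 with Torin2 (-0.42 ± 0.05, adjusted p = 1.50e-06). MRPS11 and MRPL20 fell by 0.36 ± 0.08 and 0.32 ± 0.06 on the log2 scale (adjusted p = 0.000988 and 5.21e-05). MRPL47, at the tunnel exit, had -0.17 ± 0.07 (adjusted p = 0.0402), which was lost in 6 of 13 alternative analyses, among them leaving out p16 replicate 2 or 3 or Torin2 replicate 1 or 3.

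**Figure D3:**
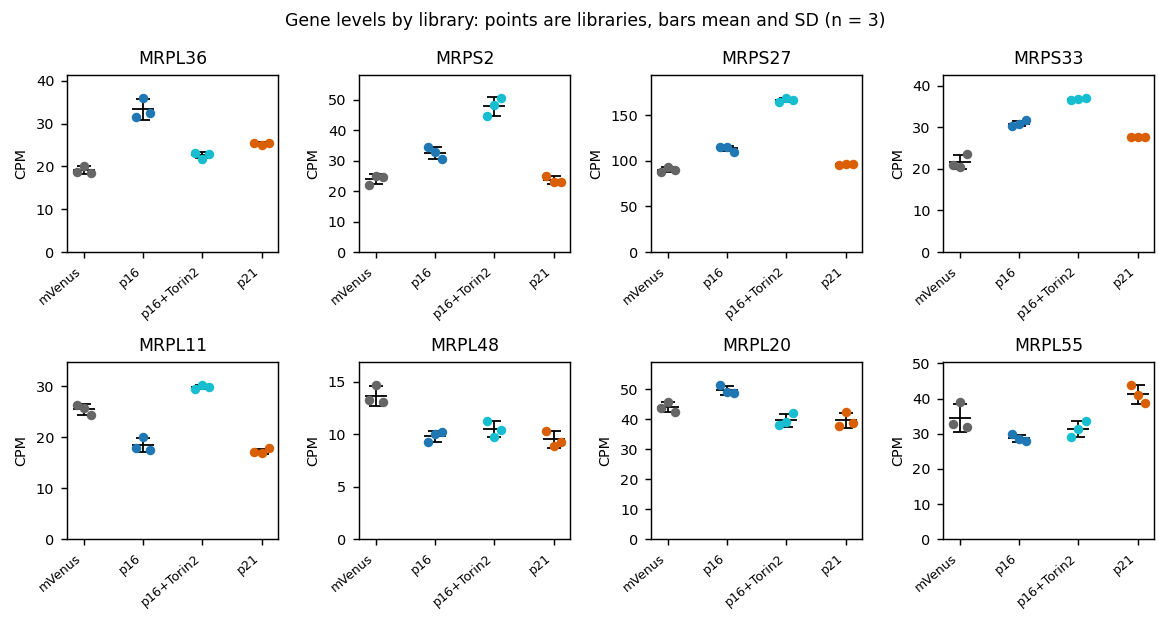
Levels of 8 genes in CPM on linear axes from 0; each point is a library, and bars give the mean and SD of 3 libraries of mVenus, p16, p16 with Torin2 and p21. MRPS2 and MRPS27 step upward from mVenus to p16 to Torin2, MRPL11 is low in p16 and p21 alone, and the means of MRPL20 and MRPL55 lie on opposite sides of mVenus in p16 and p21.

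The paralogues MRPS18A, MRPS18B and MRPS18C, which occupy different places in the ribosome, were read separately and not tested against each other. MRPS18A had 10.3 ± 0.621 CPM in mVenus, 11.02 ± 0.942 in p16, 10.4 ± 0.255 in p16 plus Torin2 and 10.8 ± 0.563 in p21, and was called in none of the comparisons. MRPS18C had 5.34 ± 0.698, 6.40 ± 0.410, 3.80 ± 0.314 and 4.38 ± 0.159 CPM. It was called lower with Torin2 over p16 and over mVenus and in p21 over p16, but not in p16 or p21 over mVenus (adjusted p = 0.0656 and 0.0889). MRPS18B had 0 counts. MRPL58 and MRPS36 were not called in any comparison either. MRPS36 ranged from 4.72 to 7.05 CPM over the 12 libraries and has 5 named pseudogenes with 143 counts.

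Relative to mVenus, the p16 cells with Torin2 differ in both the transgene and the drug. Of 74, 33 were higher and 10 lower, beside 31.2% and 36.1% of all genes, and 7 (9.46%) were called past 1.5-fold, beside 32.5% of all genes. Of genes of at least 10 CPM, 25.1% were called past 1.5-fold. MRPS2 reached 2.003-fold (log2 fold change 1.002 ± 0.07, adjusted p = 3.25e-11), MRPS27 1.85-fold (0.89 ± 0.04, adjusted p = 4.00e-14) and MRPS30 1.74-fold (0.80 ± 0.06, adjusted p = 2.68e-10). MRPS33 and MRPL23 were 1.70- and 1.67-fold higher. MRPL49, MRPS18C, MRPL27, MRPL14 and MRPL48 fell, by 0.49 ± 0.05, 0.48 ± 0.14, 0.45 ± 0.06, 0.38 ± 0.08 and 0.38 ± 0.09 on the log2 scale. Among small-subunit proteins without bacterial counterpart 8 of 9 were higher and 0 lower, median 0.34, and among those of bacterial descent 4 of 14 were higher and 2 lower, median -0.03. All 3 stalk proteins were higher here.

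Summed over the 78 genes, the transcripts took between 0.263% and 0.307% of the counts of each library. In the 3 libraries of each group the shares were 0.275%, 0.279% and 0.275% in mVenus, 0.279%, 0.282% and 0.281% in p16, 0.307%, 0.305% and 0.301% with Torin2 and 0.266%, 0.265% and 0.263% in p21. The Torin2 libraries were the highest and the p21 libraries the lowest, with no overlap between these and the other groups. Relative to TMM-scaled library size the order of mVenus and p21 turned, to 0.265 ± 0.00260% in mVenus and 0.267 ± 0.000177% in p21. MRPS names made up 0.0951% for mVenus, 0.104% for p16, 0.116% for p16 plus Torin2 and 0.0939% for p21. MRPL names took 0.182%, 0.177%, 0.188% and 0.171%, so that the MRPL share was lower in p16 than in mVenus, but higher by TMM-scaled size (0.182% against 0.174%). No test was made on these sums.

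**Figure D4:**
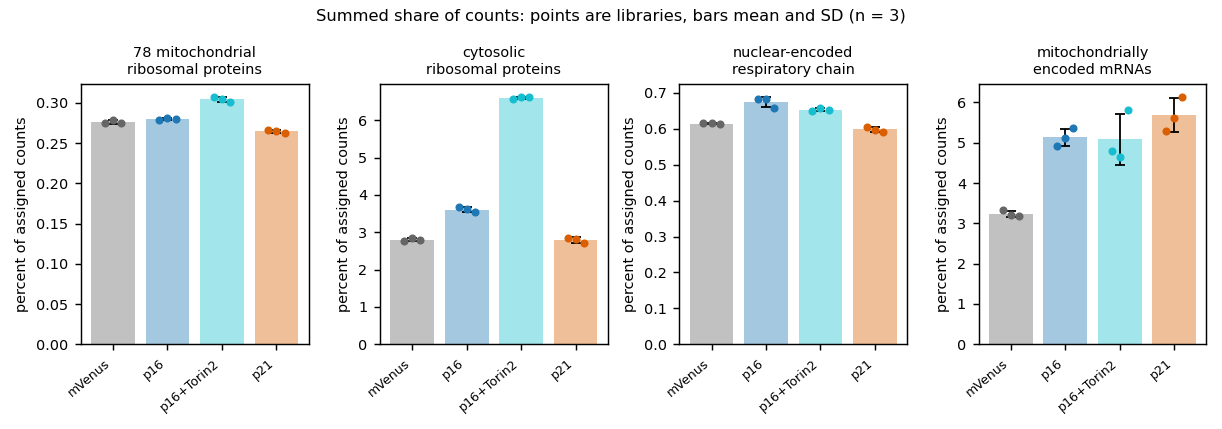
Percent of assigned counts taken by 4 gene sets, on linear axes from 0 that differ between panels; bars and whiskers are the mean and SD of 3 libraries, points the libraries. The mitochondrial ribosomal proteins stay between 0.263% and 0.307%, while the cytosolic ribosomal proteins reach 6.60% with Torin2.

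The mitochondrial partners of these proteins were measured in the same libraries. Mitochondrially encoded transcripts of all kinds made up 3.87% for mVenus, 6.49% for p21, 6.62% for p16 and 6.02% for p16 plus Torin2, as percent of counts. The mitochondrial messenger RNAs, which these ribosomes translate, were higher in p16 and in p21 for 13 of 13 genes, with median log2 fold changes of 0.68 and 0.84. Between p21 and p16, 4 of the 13 were higher and 1 lower (median 0.08), and with Torin2 over p16, 2 and 6 (median -0.09). Among all genes, 63.7% were called in p16, 56.4% in p21, 54.3% in p21 over p16 and 59.3% with Torin2 over p16. The mitochondrial ribosomal RNAs, MT-RNR1 and MT-RNR2, rose by 1.10 ± 0.17 and 1.37 ± 0.04 on the log2 scale in p16 and by 0.65 ± 0.17 and 0.37 ± 0.04 in p21. With Torin2 MT-RNR2 was lower than in p16 (-0.75 ± 0.04, adjusted p = 3.66e-12). As RNA was selected by its poly(A) tail, levels of these ribosomal RNAs measure only the copies that were retained.

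Cytosolic ribosomal protein genes, the counterpart outside mitochondria, were higher in p16 for 72 of 79 and lower for 2, and with Torin2 over p16 for 74 and lower for 2, with medians of 0.45 and 0.76. In p21 they were higher for 30 and lower for 12 (median 0.04). Nuclear-encoded genes of the respiratory chain and ATP synthase, matched by name stem and so including some pseudogenes, were higher in p16 for 52 of 78 and lower for 2 (median 0.24). In p21 the counts were 25 and 14 (median 0.02), and with Torin2 over p16 they were 11 and 33 (median -0.10). For the mitochondrial ribosomal proteins the same medians were 0.11, -0.02 and 0.00. The lists were not tested against each other, and of all genes 63.7% were called in p16, 56.4% in p21 and 59.3% with Torin2.

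Assembly factors of the mitochondrial ribosome were higher in p16 for 10 of 23 and lower for 4 (60.9% called, beside 63.7% of all genes). DDX28, an RNA helicase of large-subunit assembly, rose by 0.66 ± 0.10 on the log2 scale, TFB1M, which methylates the small ribosomal RNA, rose by 0.50 ± 0.09, and DHX30 fell by 0.31 ± 0.05. In p21, 7 were higher and 3 lower (43.5%, beside 56.4% of all genes), with NGRN at 0.41 ± 0.06 and MTG1 at -0.85 ± 0.22. With Torin2 over p16, 7 were higher and 5 lower (52.2%, beside 59.3% of all genes). NOA1, a GTPase of small-subunit assembly, had 0.94 ± 0.05 and MPV17L2 had -1.09 ± 0.10 (adjusted p = 7.49e-12 and 6.52e-09).

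Translation factors were higher in p16 for 10 of 16 and lower for 1. MRRF, the ribosome recycling factor, had 0.73 ± 0.06 and LRPPRC, which stabilises mitochondrial messenger RNA, 0.59 ± 0.04, while TACO1, a translational activator, had -0.26 ± 0.06. In p21, 6 were higher, MRRF among them (0.29 ± 0.06), and 1 lower, and with Torin2 over p16 the counts were 5 and 3. Of 20 genes for charging mitochondrial transfer RNA, 9 were higher and 4 lower in p16, 7 and 4 in p21, and 12 and 3 with Torin2 over p16, where WARS2 had 0.66 ± 0.06. GARS, which also serves the cytosol, fell by 0.46 ± 0.04 in p16. Of 15 genes for copying and transcribing mitochondrial DNA, 6 were higher and 3 lower in p16, 2 and 4 in p21, and 6 and 5 with Torin2. TWNK, the replicative helicase, had 0.84 ± 0.06 in p16, and TFAM, which packages the DNA, had -0.16 ± 0.06 in p16, -0.45 ± 0.06 in p21 and 0.52 ± 0.06 with Torin2 over p16. Of 5 mitochondrial ribosomal proteins under other names, 3 were higher in p16 (PTCD3 and DAP3 at 0.35 ± 0.05 and 0.24 ± 0.04) and GADD45GIP1 was lower (-0.16 ± 0.05). Beside these counts, 63.7% of all genes were called in either direction in p16, 56.4% in p21 and 59.3% with Torin2 over p16.

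**Figure D5:**
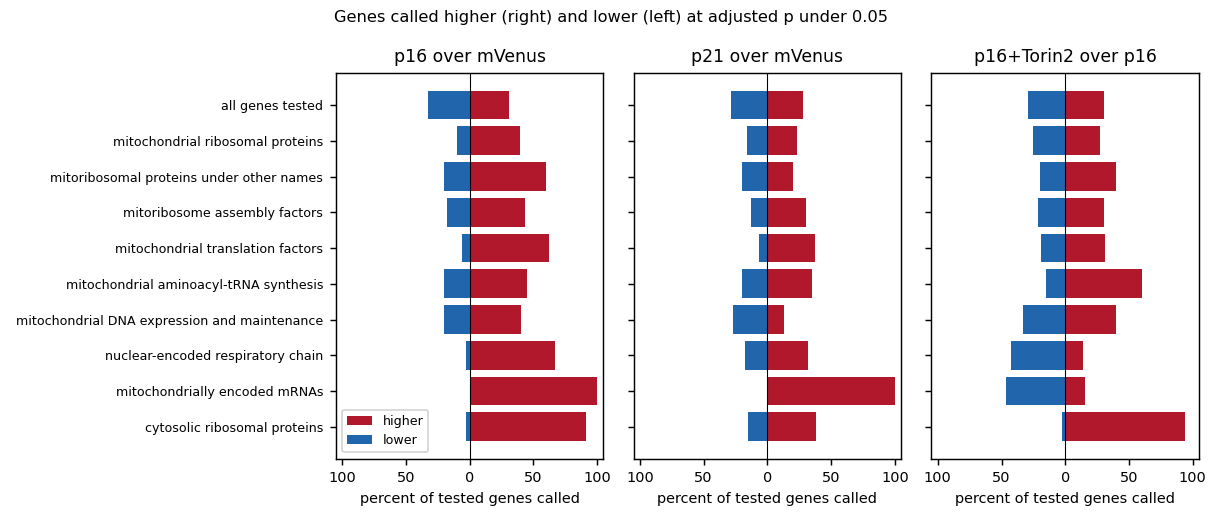
For each gene list, bars to the right give the percent of tested genes called higher and bars to the left the percent called lower, at an adjusted p under 0.05, in 3 comparisons; the top bar is all genes tested. The cytosolic ribosomal protein bar reaches over 90% higher in p16 and with Torin2, and the mitochondrial ribosomal protein bar is near that of all genes with Torin2.

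Regulators of mitochondrial biogenesis, among them factors whose motif letters were counted above, changed as follows. GABPA, the DNA-binding part of GABP, fell by 0.38 ± 0.09 on the log2 scale in p16 and by 0.44 ± 0.09 in p21, and NRF1 by 0.47 ± 0.09 and 0.28 ± 0.09. MYC rose by 2.34 ± 0.04 in p16 and 0.75 ± 0.04 in p21, and the co-activator PPARGC1B by 1.33 ± 0.09 in p16. In all, 6 of 12 were higher and 4 lower in p16, 5 and 3 in p21, and 6 and 0 with Torin2 over p16. The shares of all genes called in either direction were 63.7%, 56.4% and 59.3% in the same order. Among the 29 tested members with CCGGAAG in a promoter window, 10 were higher and 4 lower in p16, and among the 36 without it 15 were higher and 3 lower. In p16 with Torin2 over mVenus the counts were 10 and 7 with it and 18 and 3 without, beside 31.2% and 36.1% of all genes. With Torin2 over p16 they were 6 and 10 with it and 10 and 8 without, beside 30.3% and 29.0% of all genes. Among the 22 with ATGGCGG, 6 were higher and 1 lower in p16, and among the 43 without it 19 and 6. No test of these splits was made, and transcript levels of a factor do not measure its activity.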

How the data were processed

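Messenger RNA from 12 cultures of MCF10-A cells (4 groups of 3) was sequenced by the submitters. The authors deposited counts per gene name, 1 file a library. Exon reads were counted by featureCounts 1.6.3 against GENCODE 29 without a strand or multimapping option, per the file headers, so overlapping genes cannot be separated by strand. The files also hold the exonic length of each gene, used for levels per kilobase. Per the submitters' processing notes, the build was GRCh38.p7 and FastQC 0.11.3, HISAT2, Subread and DESeq2 were used. The authors' tables of comparisons were not used here.

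After filterByExpr (14504 genes kept) and TMM scaling, the counts entered edgeR's quasi-likelihood test (version 4.0.16, R 4.3.3) in 1 fit of all 12 libraries with 8 residual degrees of freedom, two-sided. Calls are at 0.05 after Benjamini-Hochberg adjustment over all tested genes of a comparison. CPM are counts scaled by TMM-adjusted library size, and SE is the absolute log2 fold change divided by the square root of F. Replicates are described as biological, but nothing names separate starting cultures, so p-values measure the spread between these samples. Depth was 13168749 to 18321114 counts. The floor is 3 counts per group, and floors cover counting error only.

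Members and lists were chosen with earlier results of these data known. Named genes followed a rule: the 5 largest rises and falls per comparison among called members whose higher group reached 5 CPM and whose replicates did not overlap; the stalk proteins, MRPL47, MRPL58, the MRPS18 paralogues, MRPS30, MRPS36 and the low-count MRPL45 and MRPS12; the 3 highest and lowest levels per length; members called in opposite directions in p16 and p21; and, for the lists, genes among their 2 largest rises and falls. Other members were named after their values were seen.

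Overlap of exons was computed from GENCODE 29; 9 members share over 30% of exonic bases with another gene. Alternatives were other scalings, no low-count filter, a replicate block, only the 6 libraries compared, each library left out, and the DESeq2 1.42.0 Wald test. The fit was tested on simulated counts with known fold changes.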

Additional observations from a re-analysis of the deposited data

Results flagged for a closer look

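Members called in opposite directions in p16 and p21 were singled out where the difference between p21 and p16 itself passed the edgeR test. There were 2. As they were chosen for opposite calls against the same mVenus libraries, this further test adds no independent support. The share of all genes called in opposite directions is not given here. MRPL20 was higher in p16 and lower in p21 than in mVenus, and p21 minus p16 was -0.33 ± 0.06 on the log2 scale (adjusted p = 6.03e-05). Its call in p21 over mVenus (adjusted p = 0.0341) was lost in 7 of 13 alternative analyses, with adjusted p up to 0.243. MRPL55 was lower in p16 and higher in p21, and p21 minus p16 was 0.52 ± 0.07 (adjusted p = 6.12e-06), with p21 and mVenus libraries overlapping.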

How the results depend on the processing

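The counts of called members stayed within 1.5 times their reported values under every alternative, which included other scalings, no low-count filter, each library left out in turn and DESeq2. The fold change of no called member turned sign. Of the 29 higher and 7 lower members in p16, 26 and 5 kept their call throughout. For Torin2 over p16 it was 17 of 20 and 8 of 19, for p21 over p16 2 of 2 and 17 of 29, and for p16 with Torin2 over mVenus 32 of 33 and 8 of 10. With no low-count filter, p21 over mVenus gave 21 higher and 8 lower, with a median of 0.02. This setting shifted the log2 fold changes of all genes by a median of 0.043. MRPS34 in p16 over mVenus lost its call in 8 alternatives, among them without mVenus replicate 1 (adjusted p = 0.193).

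The summed share of the members moved by more than its SD with the denominator, except by TMM-scaled library size in p16 with Torin2 (0.3061%). Without mitochondrially encoded genes it was 0.2877% with mVenus, 0.2832% with p21, 0.3003% with p16 and 0.324% with p16 and Torin2, and by TMM-scaled library size 0.2654%, 0.2899% and 0.2668% in mVenus, p16 and p21.

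No pairing of the samples by replicate number was seen, though with 3 libraries a group this check cannot exclude it. Of 18 pairs with the same number, 0 had correlated deviations over 0.1 (range -0.0822 to 0.0754), and 5 of 12 libraries were closest to their own number. A replicate block gave 29 higher and 6 lower in p16, 17 and 13 in p21, 19 and 19 with Torin2 over p16, 2 and 28 for p21 over p16, and 33 and 10 for p16 with Torin2 over mVenus.

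Genes with few counts, such as MRPL38, MRPL46 and MRPL53, had standard errors of 0.23 or more in p16 over mVenus, so changes near those of the other members were not detectable for them.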

Other observations

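In p16 replicate 3, some members with few counts stood low. MRPL53 had 0.339 CPM there against 1.497 and 1.449 in the other p16 libraries, MRPL38 had 0.542 against 1.81 and 1.38, and MRPL23 had 2.10 against 3.12 and 3.49. Other members with few counts did not stand low there: MRPS17 had 81 counts against 73 and 72, and MRPS28 had 50 against 48 and 49. These genes were picked after their values were seen, and no test was made.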
